A study of Mus musculus with 6 samples.

Results

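Paneth cells sit at the base of the small intestinal crypts, between the stem cells, and release antimicrobial proteins from large granules into the crypt lumen. The alpha-defensins are their most numerous granule peptides, and the 8 genes described here are Paneth cell genes of other families: Lyz1, Lyz2, Ang4, Mmp7, Itln1, Habp2, Clps and Mptx2. They were taken by name from a gene table of 55331 genes, of which the authors tested 15460. All 8 were among the tested genes. Lyz1 encodes the Paneth cell lysozyme, which cuts the peptidoglycan of bacterial walls, and Lyz2 the closely related lysozyme best known from macrophages. Ang4 encodes an angiogenin of the ribonuclease A family with antimicrobial activity, Itln1 a lectin (intelectin) that binds microbial sugars, and Mptx2 a mucosal pentraxin. Mmp7 encodes matrilysin, the protease that cuts mouse pro-alpha-defensins into their active form. Habp2 encodes a hyaluronan-binding serine protease, and Clps encodes colipase, the cofactor of pancreatic lipase.

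The study compared polyadenylated RNA of intestinal epithelial cells from the crypts of C57BL/6 mice aged 60 days, in 3 WT and 3 PTBP1_KO samples. WT samples carried the genotype Ptbp1f/f, with floxed Ptbp1 alleles and no Cre, and PTBP1_KO samples carried Ptbp1f/f;Vil-creER+/-, whose inducible Cre is driven by villin sequence, which is active in intestinal epithelium. Tamoxifen was given to WT and PTBP1_KO alike, 100 mg/kg on 2 consecutive days, and the cells were isolated 20 h after the last injection, so the controls share the floxed alleles and the drug but not Cre. The series' design text names the role of PTBP1, a splicing regulator that binds pyrimidine-rich RNA, in regeneration of this epithelium. Nothing in the labels says whether the 3 samples of a group came from separate animals, so p-values measure only the spread between these samples.

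Gene levels were given as 1 value per group, in FPKM (sequenced fragments scaled for transcript length and library size), so they carry no error that could be recomputed and their depth is unknown. Ptbp1 itself had 230.0 FPKM in WT and 122.8 in PTBP1_KO, a log2 fold change of -0.91 with q = 0.0125 in the authors' deposited table. The splicing tables hold reads of each of the 6 libraries, in sets of 3 whose genotype the headers do not name, with between 30561895 and 37788828 exon inclusion reads per library. Of these, library 3 of set 1 stood apart in the reads of Lyz1, Habp2 and Clps, taken without a log, as described below with the values of each library. The group FPKM could not be recomputed without that library, and its part in the group differences was not tested. Epithelial identity markers were high in both groups, for example Krt19, a keratin, at 2011 FPKM in WT and 2191 in PTBP1_KO.

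Sequence around the start of transcription is shown for 5 of the genes. Lyz1 and Lyz2 are neighbours of unequal level, and Ang4, Mptx2 and Mmp7 are granule genes that each had a higher level in PTBP1_KO. RefSeq (build GRCm38.p6) gave windows of 300 bases, 250 before and 50 after the start, for 7 of the 8 genes, and Clps had no entry. The windows are chr10:117292819-117293118 (minus strand) for Lyz1, chr10:117282223-117282522 (minus strand) for Lyz2, chr14:51773541-51773840 (minus strand) for Ang4, chr1:173277707-173278006 (minus strand) for Mptx2 and chr9:7691840-7692139 (plus strand) for Mmp7, which also has a start further downstream. Each reads 5′ to 3′ on the strand of its gene, and capitals mark matches to the motifs CTTTGAT or, with another base near its end, CTTTGTT (both for TCF/LEF factors of the Wnt pathway), CAGCTG (E-box, its own reverse complement), or else TATAAA (a core promoter element of many genes), searched on both strands.
Lyz1: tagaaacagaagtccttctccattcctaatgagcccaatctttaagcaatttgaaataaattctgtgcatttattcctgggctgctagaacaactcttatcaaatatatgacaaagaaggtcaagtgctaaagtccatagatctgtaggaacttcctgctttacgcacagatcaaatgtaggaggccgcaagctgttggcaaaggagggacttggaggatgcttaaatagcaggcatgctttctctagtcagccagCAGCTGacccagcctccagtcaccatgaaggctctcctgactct
Lyz2: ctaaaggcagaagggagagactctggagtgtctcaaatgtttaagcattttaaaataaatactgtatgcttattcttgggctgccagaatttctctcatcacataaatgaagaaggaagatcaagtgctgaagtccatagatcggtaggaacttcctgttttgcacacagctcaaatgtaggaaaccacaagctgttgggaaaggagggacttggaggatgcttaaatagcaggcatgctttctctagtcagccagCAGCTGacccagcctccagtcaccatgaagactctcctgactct
Ang4: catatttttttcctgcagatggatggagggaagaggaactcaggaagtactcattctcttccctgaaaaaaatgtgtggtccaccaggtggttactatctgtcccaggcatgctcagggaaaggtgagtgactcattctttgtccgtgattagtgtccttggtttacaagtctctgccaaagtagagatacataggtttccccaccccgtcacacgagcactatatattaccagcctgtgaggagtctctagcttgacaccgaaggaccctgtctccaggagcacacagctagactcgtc
Mptx2: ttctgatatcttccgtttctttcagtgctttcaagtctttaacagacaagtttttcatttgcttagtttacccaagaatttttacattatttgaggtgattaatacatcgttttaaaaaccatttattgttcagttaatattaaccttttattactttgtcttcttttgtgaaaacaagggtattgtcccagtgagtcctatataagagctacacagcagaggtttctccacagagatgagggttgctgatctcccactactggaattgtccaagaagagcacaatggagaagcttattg
Mmp7: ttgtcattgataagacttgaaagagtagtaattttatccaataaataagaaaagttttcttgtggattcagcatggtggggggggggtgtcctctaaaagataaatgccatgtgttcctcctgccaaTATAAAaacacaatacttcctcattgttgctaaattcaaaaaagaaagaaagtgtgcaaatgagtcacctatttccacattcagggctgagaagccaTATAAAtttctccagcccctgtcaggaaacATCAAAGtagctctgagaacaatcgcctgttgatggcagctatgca

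The Lyz1 and Lyz2 windows were 82.5% identical, with 49 mismatches and 4 gaps, and shared an unbroken run of 86 bases that spans the start. Each held 1 CAGCTG, at the same place, 7 bases after the start. The Mmp7 window held TATAAA 123 and 26 bases before the start, and CTTTGAT on the opposite strand 5 bases after it, printed as ATCAAAG. No match to the 4 motifs was found in the windows of Ang4, Itln1, Habp2 and Mptx2. Of 32851 RefSeq windows of the same length, 16.3% held CAGCTG, 13.6% TATAAA, 3.73% CTTTGAT and 5.85% CTTTGTT, and the motifs share no bases with each other in these windows. A match describes the letters of the window and is not evidence of a bound factor.

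All 8 genes had a higher level in PTBP1_KO than in WT, where 54.7% of all tested genes were higher. Of the 8, 4 passed q < 0.05 in the authors' deposited table: Mptx2, Ang4, Clps and Mmp7, all higher in PTBP1_KO. Over all tested genes 0.537% passed in either direction, 0.388% higher and 0.149% lower. The 8 genes were chosen with earlier results of these data known, so these shares describe the list and do not test it. An unadjusted p below 0.05 was listed for 6 of the 8 in the authors' deposited table, adding Itln1 and Habp2, against 4.35% of all tested genes in either direction and 2.69% in the higher direction. The median log2((PTBP1_KO + 1)/(WT + 1)) was 0.77 over the 8 genes and 0.02 over all tested genes. In bulk RNA, more cells of a type and more RNA per cell cannot be told apart.

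**Figure D1:**
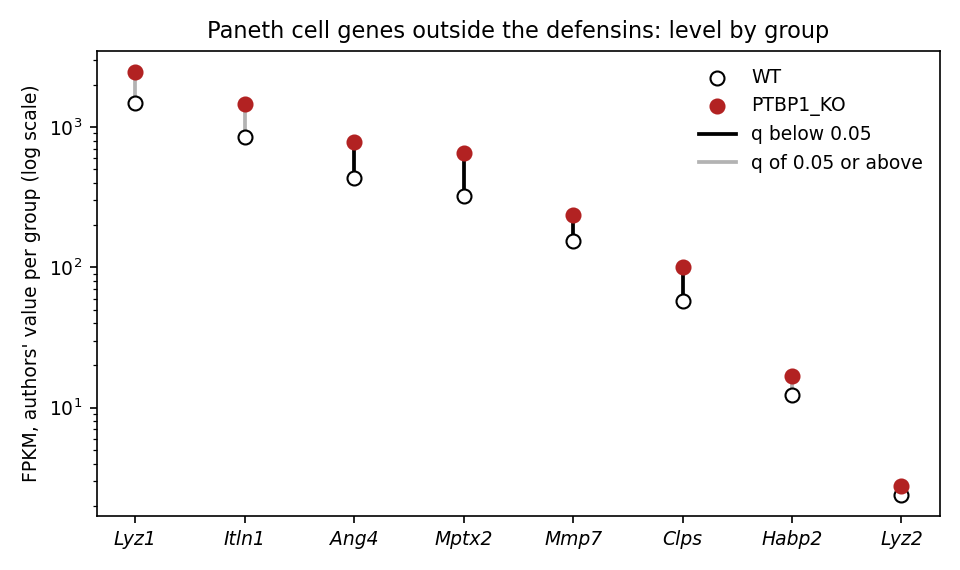
Level of each gene in the 2 groups, in FPKM on a log scale, with 1 authors' value per group and no error bar. Filled points (PTBP1_KO) lie above open points (WT) for all 8 genes, from Lyz2 at 2.41 and 2.76 FPKM to Lyz1 at 1471 and 2470 FPKM. Black lines join the 4 genes with q < 0.05 and grey lines the other 4.

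Among the proteins that act on microbes, Mptx2 (ENSMUSG00000079180.4, chr1:173274382-173277777, minus strand, 2 exons) showed the largest ratio of the 8. It rose from 321 FPKM in WT to 652 in PTBP1_KO, 2.03-fold, with a log2 fold change of 1.02, p = 5e-05 and q = 0.0125 in the authors' deposited table. Ang4 (ENSMUSG00000060615.5, chr14:51763878-51773590, minus strand, 2 exons) rose from 435 to 786 FPKM, 1.81-fold, with a log2 fold change of 0.85 and q = 0.0125 in the authors' deposited table. The p of 5e-05 behind this q is the smallest in the authors' deposited table and was shared by 62 genes, so it does not rank these genes among themselves. Itln1 (ENSMUSG00000038209.12, chr1:171518122-171535294, minus strand, up to 8 exons), the lectin gene, had 852 FPKM in WT and 1467 in PTBP1_KO. That is a 1.72-fold ratio, with p = 0.00455 and q = 0.337 in the authors' deposited table, so Itln1 did not pass the threshold. Its ratio lies between those of Mmp7 and Ang4, which did pass.

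Lyz1 (ENSMUSG00000069515.6, chr10:117287797-117292868, minus strand, 4 exons) had the highest level of the 8 in both groups. Its level was 1471 FPKM in WT, place 41 among all tested genes, and 2470 FPKM in PTBP1_KO, place 16. The 1.68-fold ratio came with a log2 fold change of 0.75, p = 0.0521 and q = 0.9998 in the authors' deposited table, so the difference did not pass the test. Clps, with nearly the same log2 fold change of 0.81, had a test statistic of 2.64 in the authors' deposited table, where Lyz1 had 1.13 and Itln1 1.73. The scale of that statistic is not given in the sources used here. Over the 1001 tested genes that reached 100 FPKM in either group, the median of the log2 fold change divided by the statistic was 0.309 in the authors' deposited table. Mptx2, Ang4, Mmp7, Clps and Habp2 had quotients from 0.271 to 0.309, whereas Itln1 had 0.453, Lyz2 0.534 and Lyz1 0.661.

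Lyz2 (ENSMUSG00000069516.8, chr10:117277331-117282321, minus strand, 4 exons) lies next to Lyz1 on the same strand, with 5475 bp between them. It had 2.41 FPKM in WT and 2.76 in PTBP1_KO, with a log2 fold change of 0.20, p = 0.526 and q = 0.9998 in the authors' deposited table. The level of Lyz1 was 611 times that of Lyz2 in WT and 895 times in PTBP1_KO, on the FPKM scale, which is per length of transcript. The transcripts of the pair are 92.0% identical over 1317 aligned columns, and 16.1% of the 50-base words of Lyz1 also occur in Lyz2. For words of 100 bases the share is 2.06%. How the authors' program divided fragments that fit both genes is not given in the sources used here, so the low level of Lyz2 beside a very high Lyz1 is uncertain. At 2.41 FPKM it ranked 10562 among the tested genes in WT, so its level gives no check of its label as a Paneth cell gene.

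The genes for the proteases and colipase had lower levels than Lyz1, Itln1, Ang4 and Mptx2. Mmp7 (ENSMUSG00000018623.9, chr9:7692090-7699585, plus strand, 6 exons), the defensin-processing protease, rose from 154 FPKM in WT to 236 in PTBP1_KO. This was 1.53-fold, with a log2 fold change of 0.62 and q = 0.0125 in the authors' deposited table. Clps (ENSMUSG00000024225.5, chr17:28558149-28560766, minus strand, 3 exons) rose from 57.6 to 100.7 FPKM, 1.75-fold, with a log2 fold change of 0.81 and q = 0.0125 in the authors' deposited table. Its exon inclusion reads, scaled to library depth, were 5277 in library 3 of set 1, against 1526 and 1439 in the other libraries of that set and 1300.5 to 1912 in set 2. Without that library set 1 thus lay within the range of set 2, and the Clps FPKM could not be recomputed without it. Habp2 (ENSMUSG00000025075.14, chr19:56287137-56320822, plus strand, up to 14 exons) had 12.4 FPKM in WT and 16.8 in PTBP1_KO, 1.36-fold, with p = 0.0116 and q = 0.566 in the authors' deposited table. The annotation places AV064505 on the opposite strand across Mmp7, Nrap across Habp2 and the microRNA gene Mir6969 on the strand of Clps. The kit marks strand, per the labels' protocols, but whether the counting used it is not given in the sources used here, so shared reads there cannot be told apart.

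Sequence shared with other genes was counted for the other members as well. Of the 50-base words of Mptx2, 17.99% also occur in Mptx1, of Ang4 4.70% in Ang2 and Ang5, and of Itln1 1.01% in Gm9765, while Mmp7, Habp2 and Clps had none. Ang2 was listed at 0 in WT and 0.0335 FPKM in PTBP1_KO, and Ang5 at 0 in both groups. Mptx1, the other mucosal pentraxin, had 6.42 FPKM in WT and 11.4 in PTBP1_KO, far below Mptx2, with p = 0.00145 and q = 0.160 in the authors' deposited table.

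Summed over the 8 genes, the level was 3304 FPKM in WT and 5731 in PTBP1_KO, a 1.73-fold ratio. This is 0.572% and 0.951% of the FPKM of all tested genes. The tested alpha-defensin genes, taken by the name Defa, summed to 13967 FPKM (2.42%) in WT and 21736 FPKM (3.60%) in PTBP1_KO. Of these 22 tested defensin genes, 21 were higher in PTBP1_KO and 6 passed q < 0.05, with a median log2 ratio of 0.53. The 22 include Defa-ps1, Defa-ps6 and Defa-ps18, whose names mark pseudogenes. An alpha-defensin gene listed under another name would be missing from these sums and counts. AY761184 (824 FPKM in WT, 1633 in PTBP1_KO) and Gm14851 (1779 and 2791 FPKM) carry no Defa name and were left out. Whether they are alpha-defensin genes was not checked.

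Among the 1001 tested genes that reached 100 FPKM in either group, Mptx2 ranked first by the log2 fold change of the authors' deposited table. Ang4 ranked 4, Clps 9, Itln1 10, Lyz1 12 and Mmp7 21. Clps reached 100 FPKM only in PTBP1_KO (57.6 FPKM in WT, 100.7 in PTBP1_KO), so its rise itself admitted it to this ranking. The median log2 fold change of these 1001 genes was 0.05 in the authors' deposited table, and 17 of them passed q < 0.05, 13 higher and 4 lower. Clps aside, the members at high level lie well above the bulk of these genes in the plot of fold change against level, next to the defensins.

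**Figure D2:**
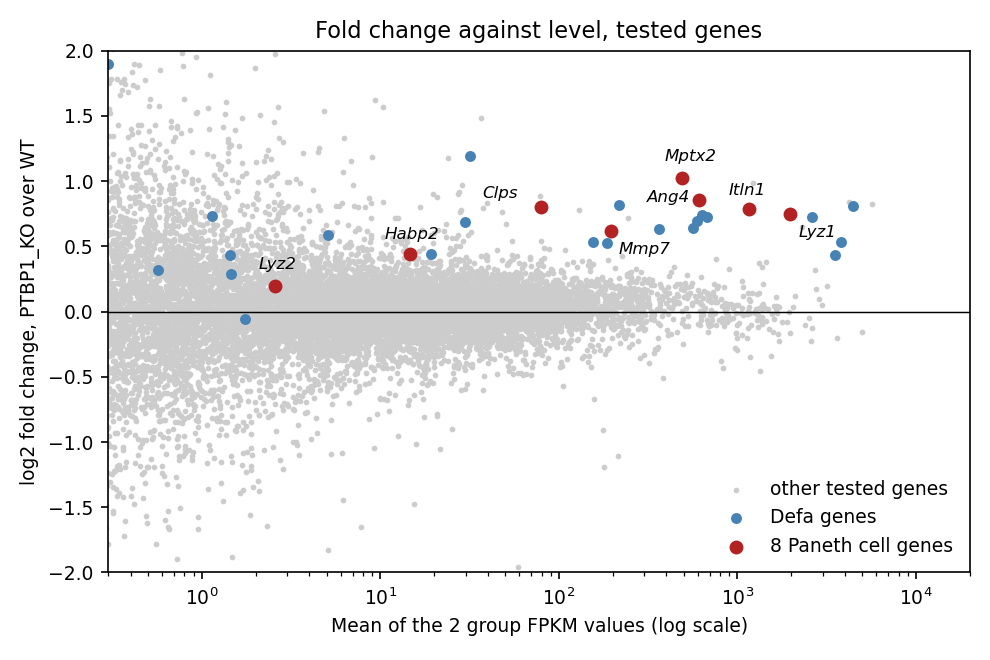
Log2 fold change of PTBP1_KO over WT from the authors' deposited table against the mean of both group levels in FPKM (log scale). Each point is 1 tested gene, red for the 8 Paneth cell genes, blue for alpha-defensins (Defa) and grey for the others, and genes beyond the axes are not drawn. The 8 genes lie between 0.20 (Lyz2) and 1.02 (Mptx2).

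Genes outside the members and the Defa genes were considered if they reached 100 FPKM in either group. The 5 whose log2 fold change lay nearest to the members' median were Gm49909, Mt1, Reg3b, Reg3g and Gm14851. Of these, Gm49909 reached 100 FPKM only in PTBP1_KO. The measure is a single fold change between 2 groups, so many patterns over samples could give it. Mt1, a metallothionein that binds zinc and copper, rose from 184 to 304 FPKM with q = 0.0125 in the authors' deposited table. Reg3b and Reg3g, C-type lectins that act against bacteria, had 4063 and 3015 FPKM in WT and 7214 and 5396 FPKM in PTBP1_KO. Their q-values were 0.849 and 0.531 in the authors' deposited table, so neither passed. Gm49909 had 94.8 FPKM in WT and 163 in PTBP1_KO, and Gm14851 1779 and 2791 FPKM, with q = 0.9998 and q = 0.105 in the authors' deposited table.

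Relatives of the members were read next, from lists chosen by textbook role. In the angiogenin and ribonuclease A family, with 6 tested genes, Ang4 alone passed q < 0.05 in the authors' deposited table. Ang, the family's founding angiogenin, had 19.9 FPKM in WT and 18.9 in PTBP1_KO, and Rnase1 had 17.8 and 27.4 FPKM with q = 0.123 in the authors' deposited table. Among 7 tested matrix metalloproteinases and their inhibitors, Mmp7 alone passed q < 0.05 in the authors' deposited table, 3 were higher and 4 lower, and Mmp14 had 15.6 FPKM in WT and 13.6 in PTBP1_KO. Of 3 tested pentraxins, Mptx2 alone passed q < 0.05 in the authors' deposited table. Of 4 tested serine proteases related to Habp2 none passed q < 0.05 in the authors' deposited table, and 1, Habp2 itself, had an unadjusted p below 0.05 (Hgfac, the activator of hepatocyte growth factor, had 24.5 FPKM in WT and 25.9 in PTBP1_KO).

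Colipase works with lipases made by the exocrine pancreas, so their levels were read beside it. Pnliprp2, a pancreatic lipase-related protein, was also higher in PTBP1_KO, from 28.3 to 50.4 FPKM with a log2 fold change of 0.84 and q = 0.0125 in the authors' deposited table. Pnlip, the pancreatic lipase itself, was listed at 0 in both groups, and Pnliprp1 had 1.13 FPKM in WT and 0.729 in PTBP1_KO. Of 12 markers of pancreatic acinar cells, 5 were listed at 0 in both groups and 2 were tested. The 12 summed to 7.01 FPKM in WT and 7.53 in PTBP1_KO, mostly from Cela1, an elastase, at 6.07 and 6.72 FPKM. Clps alone stood at 57.6 and 100.7 FPKM, above these sums in both groups. The part of pancreatic tissue in the level of Clps was not tested.

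Genes that specify Paneth cells or carry their signals were counted beside the granule genes. Of 10 regulators of Paneth cell fate and signalling, 2 were higher and 8 lower in PTBP1_KO, none passed q < 0.05 in the authors' deposited table and 1 had an unadjusted p below 0.05, and their median log2 ratio was -0.08. Sox9, the transcription factor required for Paneth cells, had 16.7 FPKM in WT and 13.6 in PTBP1_KO, at p = 0.0400 in the authors' deposited table. Cd24a, a surface protein used to sort Paneth cells, had 250 and 217 FPKM, at p = 0.201 in the authors' deposited table. Of 5 niche ligands, through which Paneth cells signal to stem cells, 2 were higher and 3 lower, with none past q < 0.05 in the authors' deposited table and 1 with an unadjusted p below 0.05. That gene was Wnt3, at 2.07 FPKM in WT and 3.11 in PTBP1_KO, at p = 0.00900 and q = 0.499 in the authors' deposited table, while the Notch ligand Dll1 had 20.2 and 15.8 FPKM with p = 0.116 in the authors' deposited table.

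The secretory machinery and the other antimicrobial genes were also counted. Of 12 genes for granule secretion, endoplasmic reticulum and autophagy, 8 were higher and 4 lower, none passed q < 0.05 and none had an unadjusted p below 0.05 in the authors' deposited table, with a median log2 ratio of 0.12. Agr2, a disulfide isomerase of secretory cells, had 1632 FPKM in WT and 1569 in PTBP1_KO, and Sec61a1, part of the translocon, had 111 and 133 FPKM. Of 10 other antimicrobial and Paneth secretory genes, 8 were higher and 2 lower, with a median of 0.47 and 1 past q < 0.05 in the authors' deposited table, Pnliprp2. An unadjusted p below 0.05 was listed for 6 of the 10 in the authors' deposited table. These were Guca2a, Mptx1, Pnliprp2, Reg3a, Reg3b and Reg3g, all higher in PTBP1_KO. Pla2g2a, a phospholipase gene, was at 168 FPKM of RNA in both groups (p = 0.994 in the authors' deposited table).

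Other cell types that a crypt preparation can hold were read from their markers. Goblet cell markers (8 tested) had a median log2 ratio of 0.09, enterocyte markers (9) -0.05, stem cell markers (9) -0.06 and epithelial identity markers (7) 0.14, and none of these genes passed q < 0.05 in the authors' deposited table, with 1 gene in the goblet list and none in the other lists at an unadjusted p below 0.05. The goblet gene was Galnt12, at 31.4 FPKM in WT and 23.3 in PTBP1_KO. Olfm4, a stem cell marker, had 618 and 578 FPKM, and Spink4, of goblet cells, 2956 and 3391 FPKM. Of 9 lymphocyte markers 8 were higher, and Gzma, Gzmb and Cd8a passed q < 0.05 in the authors' deposited table. The granzyme gene Gzma rose from 54.9 to 101.4 FPKM, Gzmb from 18.9 to 35.3 FPKM and the T cell co-receptor gene Cd8a from 4.30 to 7.52 FPKM, and the list summed to 112 FPKM in WT and 197 in PTBP1_KO. Its part in the differences of the 8 genes was not tested.

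Macrophage and myeloid markers bear on Lyz2, which macrophages express. Of 15 listed, 10 were tested, 8 of them higher and 2 lower, none passed q < 0.05 in the authors' deposited table and 2 had an unadjusted p below 0.05. The 15 summed to 24.0 FPKM in WT and 29.6 in PTBP1_KO, and none was listed above 7.52 FPKM. Adgre1, a surface receptor that defines mouse macrophages, had 0.0646 and 0.0880 FPKM, and Tyrobp, an adaptor of myeloid and natural killer cells, 2.21 and 5.15 FPKM with q = 0.117 in the authors' deposited table. Lyz2 itself differed by 0.35 FPKM. The part of myeloid cells in its level was not tested.

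The members' levels were also set beside genes graded along the small intestine, because Paneth cell genes and their products vary with position. Of 7 genes of proximal small intestine, 3 were higher and 4 lower, with a median log2 ratio of -0.25. Pdx1, the transcription factor of duodenum and pancreas, fell from 2.32 FPKM in WT to 0.629 in PTBP1_KO, with a log2 fold change of -1.88 and q = 0.0125 in the authors' deposited table. Of 7 genes of distal small intestine all were higher, with a median of 0.27. Slc10a2, the ileal bile acid transporter, rose from 3.82 to 6.06 FPKM with a log2 fold change of 0.66 and q = 0.0125 in the authors' deposited table. The part of gut position in the members' differences was not tested.

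Reads of single libraries were available for 5 members through the splicing tables, which list reads that include an exon. For each gene the skipped exon event with most reads was taken and scaled to library depth (median of ratios over 38792 events). As the genotype of neither set is named, the 6 libraries are given as they stand, with no test between the sets and no n. Lyz1 had 28538, 28266 and 108307 scaled reads in libraries 1, 2 and 3 of set 1 and 17522, 18816 and 38267 in those of set 2. Library 3 of set 1 was highest, at 3.83 times the median of the other 5. Clps had 1526, 1439 and 5277 scaled reads in set 1 and 1912, 1717 and 1300.5 in set 2, with the same library highest, at 3.46 times the median of the others.

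Habp2 had 203, 124 and 499.9 scaled reads in set 1 and 157, 142 and 225 in set 2, and the highest library was again library 3 of set 1, at 3.19 times the median of the other 5. Itln1 had 43617, 23929 and 70561 in set 1 and 22683, 26536 and 45985 in set 2. Here the highest, the same library, was 2.66 times the median of the others, and library 1 of set 1 and library 3 of set 2 came closest to it. Mmp7 was the most even, with 8084, 5868 and 11473 scaled reads in set 1 and 5364, 4534 and 8449 in set 2, and a ratio of 1.96 for the same library. Library 3 of set 2 was second highest for Lyz1, Mmp7, Itln1 and Habp2 and lowest for Clps. Leaving library 3 of set 1 out, the highest of the remaining 5 exceeded the lowest by 1.47-fold for Clps, 1.81-fold for Habp2, 1.86-fold for Mmp7, 2.03-fold for Itln1 and 2.18-fold for Lyz1. Libraries 1 and 2 of set 1 both lay within the range of set 2 for Lyz1, Mmp7, Itln1 and Clps. For Habp2 1 lay within it and 1 below it. Library 3 of set 1 was set aside because it was highest, so this placing is no test of its part.

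**Figure D3:**
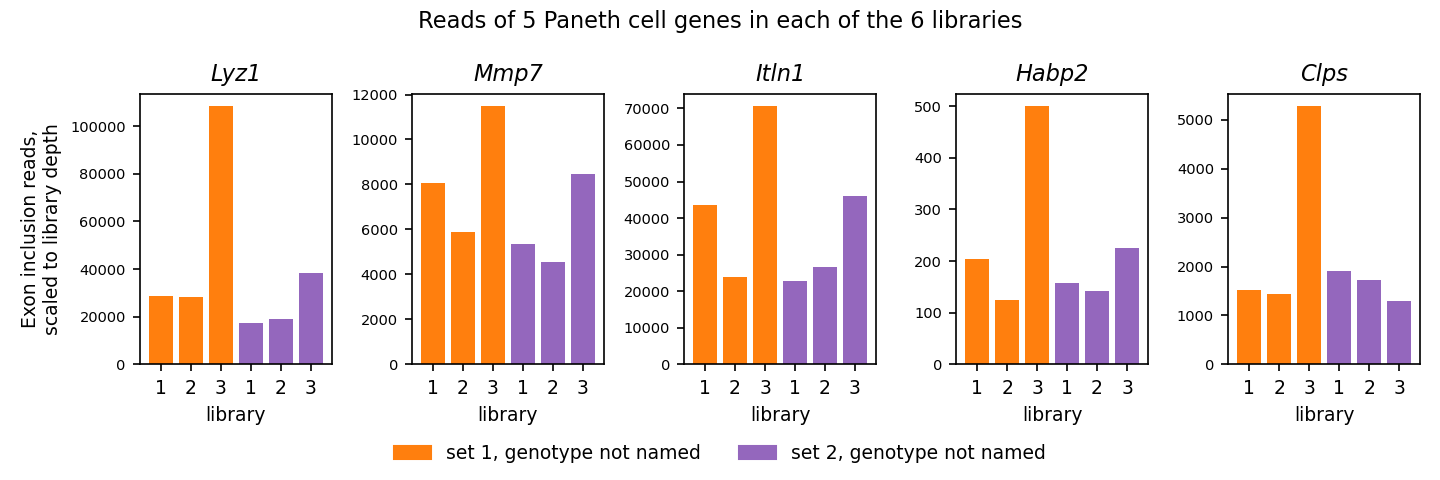
Exon inclusion reads, scaled to library depth, of the 5 Paneth cell genes with splicing events in each of the 6 libraries, 1 bar per library and no error bar. The tallest bar in all 5 panels is library 3 of set 1, from 1.96 times the median of the other 5 (Mmp7) to 3.83 times (Lyz1). The genotype of the sets is not named.

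For 7168 other genes, the event with most reads averaged 100 or more inclusion reads over the libraries before scaling. In scaled reads, their highest library exceeded the median of the other 5 by a median of 1.22-fold, and 1.42% of these genes reached 2-fold in any library. Library 3 of set 1 was the highest for 15.0% of them. It was highest with a ratio of at least 2 for 5 genes (0.0698%). For 3 of these 5 all libraries of set 1 lay above all of set 2, so they differed between the sets and not in library 3 alone. The other 2 were Slc7a6, at 2.00-fold, and Pnliprp2, at 2.11-fold, both named after their values were seen. Lyz1, Itln1, Habp2 and Clps, that is 4 of the 5 members with reads, reached that ratio there. That library was picked because it was highest for the members, so setting them beside the other genes in it is no test. As the sets are not named by genotype, no test of the groups against the spread of libraries was run.

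Markers of other cell types were read in the same 6 libraries. Relative to each gene's median over the 6 libraries, the 5 members had a median of 2.78 in library 3 of set 1 and between 0.757 and 1.251 in the others. Library 3 of set 1 was picked because it was highest for the members, so comparing them with other lists there is no test. In that library the 6 goblet cell markers with enough reads had a median of 1.02, the 10 enterocyte markers 0.750, the 7 stem cell markers 1.11, the 6 epithelial identity markers 0.980 and the 6 regulators of Paneth cell fate 0.937. In the same library 7 other antimicrobial genes had 1.27, and 11 genes for secretion and autophagy had 1.10. The medians of 8 lymphocyte markers ran from 0.245 in library 3 of set 2 to 1.96 in library 2 of set 1, with 1.36 in library 3 of set 1.

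**Figure D4:**
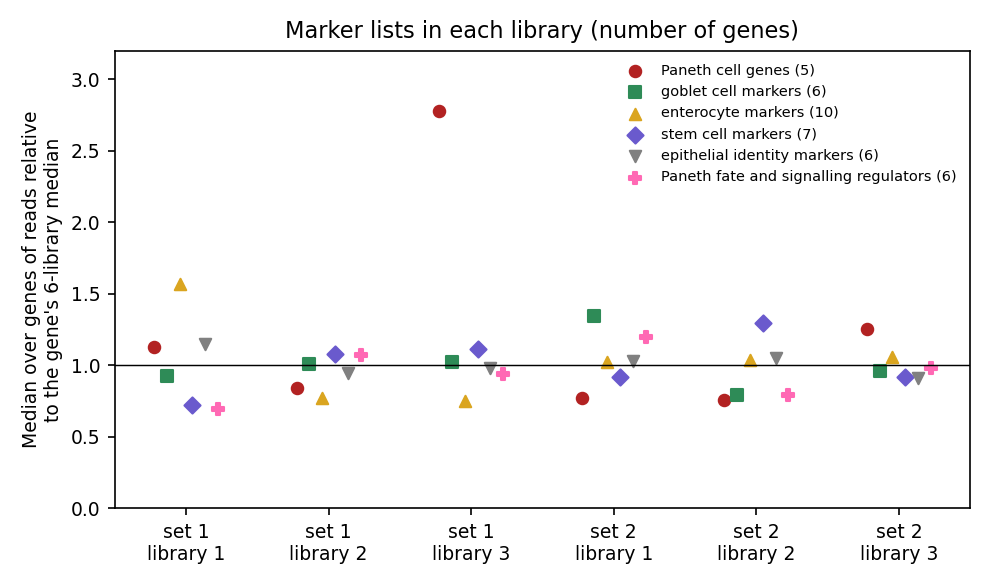
Median over the genes of a list of reads relative to each gene's median over the 6 libraries, for each library, with the number of genes in brackets. The Paneth cell genes reach 2.78 in library 3 of set 1, where the other 5 lists drawn lie between 0.750 and 1.11. That library was picked because it was highest for the Paneth cell genes.

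Splicing of the members themselves was read last, since PTBP1 regulates exon inclusion. The 5 splicing tables held 26 events of the members, 20 skipped exons and 6 mutually exclusive exon pairs, in Itln1 (14 events), Habp2 (7), Lyz1 (3), Mmp7 (1) and Clps (1), and none in Lyz2, Ang4 and Mptx2. An event was called at FDR < 0.05 in the authors' deposited table with an inclusion level difference of at least 0.1 between the sets and a mean of at least 20 reads. None of the 26 was called, and 24 of them had enough reads. Over all 53918 events with enough reads 1.56% were called, so a count of 0 among 24 is near the background and is not a result about these genes. An unadjusted p below 0.05 was listed for 1 of them in the authors' deposited table, an event of Itln1 listed as mutually exclusive exons.

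That Itln1 pair comprised coding exons at chr1:171529121-171529224 (104 nt) and chr1:171531034-171531192 (159 nt), with a difference of 0.057, p = 0.0351 and FDR = 0.345 in the authors' deposited table. No larger absolute difference was listed for any event of the members with enough reads. A pair in Lyz1 (chr10:117289119-117289197 and chr10:117291029-117291193) had a difference of 0.038 with p = 0.0624 and FDR = 0.454 in the authors' deposited table. As skipped exon events, both exons of the Itln1 pair and both of the Lyz1 pair had inclusion of at least 0.9999 over all libraries. The exons of a pair thus occur together, and the pair differences do not show a choice between them. The Habp2 event with the smallest p was a coding exon of 111 nt (chr19:56306773-56306883), with a difference of -0.035, p = 0.0664 and FDR = 0.660 in the authors' deposited table. That exon had the lowest inclusion of the skipped exon events with enough reads, 0.953 over all libraries from a mean of 148 reads. Inclusion was at least 0.99 in 16 of the 19 such events.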

How the data were processed

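Polyadenylated RNA of 3 WT and 3 PTBP1_KO samples was sequenced, grouped by their titles. The submitters' processing notes name mm10 as the build, STAR 2.6.1d, Trimmomatic 0.38, bcl2fastq 2.20, Cuffdiff and Cufflinks. The authors deposited 1 FPKM value per group and gene. A log2 fold change, a test statistic (a score), a p-value and a q-value were also deposited by the authors, and the q-values equal Benjamini-Hochberg adjustment over the 15460 tested genes to within 5.01e-07. A gene was called at q < 0.05 with status OK. The splicing tables give the authors' reads per library, inclusion level difference (a score), p-value and FDR, per the file headers. Another 10 columns, of inclusion levels for single libraries, were left out.

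From these files, log2 ratios with a pseudocount of 1, list counts and medians, scaled library reads, shared words of transcripts and motif matches were computed with pandas 2.3.3, numpy 2.4.6 and scipy 1.17.1 in Python 3.11.15, and drawn with matplotlib 3.10.9. Library scaling was tested on simulated data. Genes and exons are from GENCODE M21 on mm10, 1-based. The members and the gene lists were chosen with earlier results of these data known. Beside the members, each list's called genes, its gene of highest mean FPKM and its gene of largest log2 ratio at 1 FPKM or more were named, and a few relatives of the members and markers were named after their values were seen. Alternatives were 2 other pseudocounts, centring, a minimum of 1 FPKM, other q and fold thresholds and, for library ratios, 2 settings chosen after seeing the data.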

Additional observations from a re-analysis of the deposited data

Results flagged for a closer look

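In the scaled exon inclusion reads of the 6 libraries, library 3 of set 1 lay far from the other 5 for 3 genes. The gap from the highest library to the next, divided by the whole range, was 0.771 for Lyz1, 0.732 for Habp2 and 0.846 for Clps, each above the critical value of Dixon's test for 6 values. The gap was 0.513 for Itln1 and 0.436 for Mmp7, below that value, although the same library was highest. The 6 libraries were taken as 1 group because the genotype of the sets is not named, so a difference between genotypes is part of each range. Chance flags about 1 in 20 such groups if values are normally distributed, and the 3 genes share the same libraries. Reads were used without a log, so the rate for them is unknown. A log scale narrows these gaps, and the flags were not computed on it.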

How the results depend on the processing

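No paired analysis was possible because the gene table holds 1 value per group and the libraries of the splicing tables are not tied to samples. For the same reason no replicate could be left out of the group FPKM. In the reads of single libraries, libraries 1 and 2 of set 1 lay within or below the range of set 2. This held for all 5 members with reads, the called genes Clps and Mmp7 among them. Library 3 of set 1 was set aside because it was highest, so its part in the group differences was not tested. Of the 4 members called, none was called at q < 0.01, since q in the authors' deposited table goes no lower than 0.0125 (count 0, with 6 of the 8 at an unadjusted p below 0.05), and 1, Mptx2, had a log2 fold change of size 1 or more. The members' median log2 ratio and the directions of all 8 held under every setting run. List medians moved as follows. With a pseudocount of 10 they were 0.090 for the ribonuclease A family, 0.38 for pentraxins, 0.66 for colipase and lipases, 0.029 for myeloid and 0.27 for lymphocyte markers. With a pseudocount of 0.1 they were -0.17 for metalloproteinases and inhibitors, 0.26 for proteases like Habp2, 0.41 for myeloid markers and 0.64 for alpha-defensins. With at least 1 FPKM, fewer genes entered, pentraxins had 0.88 and the metalloproteinase list turned from -0.06 to 0.029. Among single members the log2 ratio became 0.04 for Lyz2 and 0.26 for Habp2 with a pseudocount of 10. The other 93 list values and 22 single values moved by less than 0.1 on the log2 scale or, for counts and library ratios, by at most 1.5 times. The gene table gives no depth, so precision at low FPKM, as for Lyz2, is unknown.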
